A study of Homo sapiens with 33 samples.

Results

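Untreated MDA-MD-468 cells were compared with untreated MDA-MD-231 cells over all genes, 2 breast cancer lines under the spelling of the labels. The comparison rests on 4 of the 33 libraries of the series: in each line 1 library labelled DMSO, the solvent control, and 1 labelled parental, all at 0 h and with a wild-type genotype. These 4 were chosen by their labels alone, and no library treated with an inhibitor or carrying a knockout entered it. The series set out to profile what CDK7 and CDK9 inhibitors do in both lines, so this contrast gives the state from which each line starts. RNA was read as 3' tags (QuantSeq), where each poly(A) transcript yields reads close to its end, and the deposited values are read counts per gene. The labels do not say whether the DMSO and parental libraries of a line came from separate cultures, or how long the DMSO cells were exposed, so p-values measure only the spread between these libraries. Each line is an established culture from 1 tumour, and 1 line stands for each cell state.

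The lines usually written MDA-MB-231 and MDA-MB-468 are both triple-negative, which means that they lack oestrogen receptor, progesterone receptor and HER2 amplification. MDA-MB-231 is known as a mesenchymal, claudin-low line, and MDA-MB-468 as a basal-like epithelial line with abundant EGFR and without functional RB1. Epithelial cells hold together through cadherin, claudin and desmosome junctions and are filled with keratins, whereas mesenchymal cells carry vimentin and secrete matrix. The transcription factors ZEB1, ZEB2 and SNAI2 repress epithelial genes in the epithelial-mesenchymal transition, and the miR-200 family in turn represses ZEB1 and ZEB2. DNA sequence, copy number and protein were not measured here.

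Counts summed to 22154006 (DMSO) and 22859779 (parental) in MDA-MD-231 and to 18904290 and 20981496 in MDA-MD-468. The libraries carried most markers of the line named on their label. The median of 14 MDA-MB-231 identity genes was 229 and 244 CPM (read counts scaled to a common library size with TMM factors) in the MDA-MD-231 libraries against 12.0 and 13.8 CPM in the MDA-MD-468 ones. Of these 14 genes, 12 were lower in MDA-MD-468. CD44 did not pass, with means of 825 CPM in MDA-MD-231 and 1671 CPM in MDA-MD-468. SPARC was too low to test, at 0.361 and 0.499 CPM. The median of 19 MDA-MB-468 identity genes, all higher in MDA-MD-468, was 1.89 and 0.725 CPM in MDA-MD-231 and 175 and 192 CPM in MDA-MD-468. Summed levels of 10 immune cell markers were between 2.699 and 15.3 CPM and of 10 fibroblast and endothelial markers between 4.70 and 12.3 CPM. The T and B cell markers CD3D, CD3E, CD79A and MS4A1 and the pan-leukocyte gene PTPRC did not pass the filter on low counts. The 3 immune markers that passed it all differed: the monocyte genes CD14 (0.585 and 0.680 CPM in MDA-MD-231 and 3.69 and 7.34 CPM in MDA-MD-468) and CSF1R (0.630 and 1.45 CPM in MDA-MD-231 and 5.25 and 7.53 CPM in MDA-MD-468) were higher in MDA-MD-468, and the lysozyme gene LYZ (0.989 and 0.997 CPM against 3 reads) was lower. Of 6 fibroblast and endothelial markers that passed, FAP and CDH5 were higher and ACTA2, PDGFRB and RGS5 lower. Within a line, the DMSO and parental libraries were further apart than reads drawn at random would put them: chi-square over its degrees of freedom was 44.5 for MDA-MD-231 and 27.5 for the other line. The median gene differed between them by 0.23 and 0.18 on the log2 scale. The mitochondrial mRNAs took 2.51% and 2.17% of the counts in MDA-MD-231 and 3.93% and 3.88% in MDA-MD-468.

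Below, pairs of values are in the order DMSO, parental, log2 differences are MDA-MD-468 minus MDA-MD-231 ± standard error, and a gene counts as higher or lower in MDA-MD-468 where the edgeR quasi-likelihood test gave a Benjamini-Hochberg (BH) adjusted p under 0.05 over all genes tested. Where a line had no read of a gene, the difference is given as a lower bound against a floor of 3 counts per library. With 1 to 3 reads in a line, the ratio is given with its 95% counting interval. Levels are compared between lines, not between genes. In bulk RNA, fewer cells with a transcript and less transcript per cell cannot be told apart.

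Of 16731 genes tested, 9231 (55.2%) differed between the lines, 4804 (28.7%) higher and 4427 (26.5%) lower in MDA-MD-468. More than 2-fold differences were found for 6881 genes (41.1%), 3741 (22.4%) higher and 3140 (18.8%) lower, and differences over 8-fold for 1600 higher and 1175 lower genes. The median log2 difference over all genes was 0.03. The shares of 28.7% higher and 26.5% lower are the background for the counts given for each gene list below. The lists were composed with earlier results of these data known. Their counts therefore describe the listed genes and do not test whether a list stands out from that background. The 2 libraries of one line lay wholly above those of the other for 13375 genes (79.9%). Leaving out the MDA-MD-468 parental library lowered the count of genes that differed to 6101 and that of lower genes to 2834. Some 243 genes had at least 10 CPM in MDA-MD-468 and at most 3 counts in each MDA-MD-231 library, and 142 of them had no count there at all. The reverse held for 195 genes, 117 of which had no count in MDA-MD-468. The third MDA-MD-231 library, labelled parental in the knockout part of the series, with 17324459 counts, stood on the MDA-MD-231 side for 3578 of the 3741 higher and 3067 of the 3140 lower genes with differences over 2-fold.

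**Figure D1:**
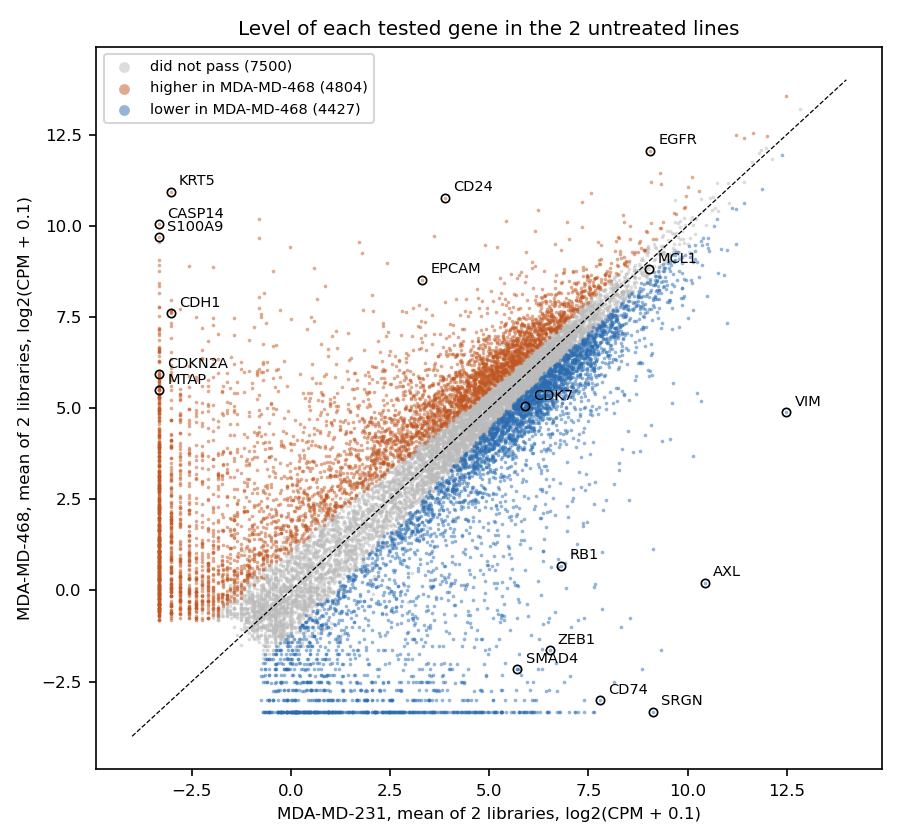
Each point is 1 of the 16731 tested genes, placed by its mean level in the 2 MDA-MD-231 libraries (horizontal) and the 2 MDA-MD-468 libraries (vertical), both as log2(CPM + 0.1). Orange and blue mark the 4804 genes higher and the 4427 lower in MDA-MD-468, and the columns of points at the left and bottom edges are genes with no or few reads in 1 line.

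Genes of epithelial junctions and polarity were higher in MDA-MD-468 almost throughout. Of the 40 genes listed, 37 passed the filter on low counts, 32 of these were higher and 2 lower, with a median log2 difference of 3.98 against 0.03 over all genes. A gene that passes that filter through 1 line alone is bound to differ, here as in the other lists. CDH1, which encodes E-cadherin, the main adherens junction protein of epithelia (chromosome 16, 68737225 to 68835548, GRCh38), had a single read in the MDA-MD-231 libraries and 196 and 192 CPM in MDA-MD-468. It was higher by 8638-fold, 95% counting interval 1544 to 339863 (edgeR BH-adjusted p = 2.07e-05). The surface adhesion gene EPCAM had 7.20 and 12.5 CPM in MDA-MD-231 and 361 and 372 CPM in MDA-MD-468, a difference of 5.22 ± 0.30, edgeR BH-adjusted p = 6.83e-05. LAD1, a basement membrane anchor, and DSC3, a desmosomal cadherin, had no read in MDA-MD-231. LAD1 had 103 and 154 CPM in MDA-MD-468 (at least 946-fold higher) and DSC3 had 55.4 and 48.8 CPM (at least 385-fold higher). The same held for PRSS8, a membrane protease of tight epithelia, with 62.4 and 63.02 CPM (at least 463-fold higher), and for the adhesion gene NECTIN4 with 115 and 118 CPM (at least 862-fold higher). Not every junction gene followed. TJP1, the scaffold of tight junctions, had 155 and 139 CPM in MDA-MD-231 and 144 and 133 CPM in MDA-MD-468 (-0.09 ± 0.15, edgeR BH-adjusted p = 0.647), and these libraries overlapped. PKP2 of the desmosome also overlapped (-0.34 ± 0.26), and was called only without the MDA-MD-231 DMSO library (-0.70). The desmosomal cadherin DSG2 was lower (-0.97 ± 0.15, edgeR BH-adjusted p = 0.00207), and so was ERBIN, a basolateral polarity protein, with 310.1 and 289.5 CPM in MDA-MD-231 and 38.1 and 34.8 CPM in MDA-MD-468 (-3.04 ± 0.16, edgeR BH-adjusted p = 5.49e-05). Without the MDA-MD-231 DMSO library the number of lower genes in this list was 4.

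All 17 transcription and splicing factors of epithelia that passed the filter, of 20 listed, were higher in MDA-MD-468, with a median of 5.73. GRHL2, a grainyhead factor that keeps junction genes active, had no read in MDA-MD-231 and 92.3 and 110.00 CPM in MDA-MD-468, at least 747-fold higher. ELF3, an epithelial ETS factor, had 1 read in MDA-MD-231 and 157 and 242 CPM in MDA-MD-468 (8801-fold, 95% counting interval 1592 to 350435). The epithelial splicing regulator ESRP1 had 0.315 and 0.227 CPM in MDA-MD-231 and 166 and 187 CPM in MDA-MD-468 (9.32 ± 0.26, edgeR BH-adjusted p = 2.07e-05). ZNF750, a factor of epidermal differentiation, was at least 141-fold higher. EHF differed least among those named: it had 72.5 and 83.98 CPM in MDA-MD-231 and 195 and 271 CPM in MDA-MD-468, so this ETS factor was read in both lines (1.57 ± 0.21, edgeR BH-adjusted p = 0.0012). TP63 and ELF5 did not pass the filter on low counts.

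The promoters of 3 of the higher junction genes are shown because they hold the hexamer CACCTG, or its reverse complement CAGGTG, to which ZEB and SNAI factors are known to bind. These genes were picked after their values and sequences were seen. Each run covers 250 bases before to 50 bases after a promoter start listed for the gene in RefSeq (GRCh38.p14), on the gene's own strand. This start need not be the outer end of the gene. The hexamer on either strand is in capitals. CRB3 encodes a polarity protein of the apical membrane (0.158 and 26.1 CPM on average in MDA-MD-231 and MDA-MD-468), RAB25 an epithelial vesicle GTPase (0.0225 and 120.1 CPM), and LAD1 is described above. The windows are chr19:6464021-6464320 (plus strand), chr1:156060910-156061209 (plus strand) and chr1:201399275-201399574 (minus strand).
CRB3: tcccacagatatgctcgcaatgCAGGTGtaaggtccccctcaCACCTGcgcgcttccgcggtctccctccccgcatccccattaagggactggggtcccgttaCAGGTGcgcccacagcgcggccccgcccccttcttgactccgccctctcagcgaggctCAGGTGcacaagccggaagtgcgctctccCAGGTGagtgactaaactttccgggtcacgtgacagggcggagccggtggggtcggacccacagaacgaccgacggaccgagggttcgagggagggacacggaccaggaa
RAB25: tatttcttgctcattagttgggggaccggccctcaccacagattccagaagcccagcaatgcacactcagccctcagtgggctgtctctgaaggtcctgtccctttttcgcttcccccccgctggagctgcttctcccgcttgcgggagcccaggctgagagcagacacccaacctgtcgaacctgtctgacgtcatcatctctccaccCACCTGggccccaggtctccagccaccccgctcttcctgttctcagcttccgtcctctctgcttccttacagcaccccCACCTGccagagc
LAD1: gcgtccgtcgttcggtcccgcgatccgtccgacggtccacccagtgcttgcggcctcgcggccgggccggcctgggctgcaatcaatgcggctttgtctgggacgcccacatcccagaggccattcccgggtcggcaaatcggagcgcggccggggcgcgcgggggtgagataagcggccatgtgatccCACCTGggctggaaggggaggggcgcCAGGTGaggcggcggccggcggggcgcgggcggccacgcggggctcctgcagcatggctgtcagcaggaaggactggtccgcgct
The CRB3 window holds 5 copies and the other windows 2 each. RefSeq sequences of this length were found for 19 of the 32 higher junction genes, with 25 promoters, and 14 of these (56%) hold at least 1 copy. Over all 35116 promoters in the table, 7231 (20.6%) do. Of 20 promoters of 9 epithelial factors 3 (15%) hold it, and of 40 promoters of 21 lower mesenchymal genes 9 (22.5%). These shares were not tested. The genes were chosen by their calls in these data, and promoters of the same gene are not independent. A match says only that these letters are there, and binding was not measured.

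Keratins, the intermediate filaments of epithelial cells, followed the same direction: 16 of 18 that passed the filter (19 listed) were higher in MDA-MD-468 and 0 were lower. The median was 6.91, or 5.27 with genes unread in 1 line set at their bound. KRT5, the basal-layer keratin, had 1 read in MDA-MD-231 and 1403 and 2505 CPM in MDA-MD-468 (86889-fold, 95% counting interval 15620.1 to 3437630.00). KRT23 and KRT4 had no read in MDA-MD-231. KRT23 had 219.9 and 432 CPM in MDA-MD-468, at least 2405-fold higher. KRT4 had 46.8 and 60.00 CPM, at least 394-fold higher. KRT6B rested mostly on 1 library: 9.29 and 69.1 CPM in MDA-MD-468 and none in MDA-MD-231 (at least 289-fold, edgeR BH-adjusted p = 0.00405), and its reads may be shared with the near-identical KRT6A. KRT19, a simple-epithelium keratin, was read in both lines, at 122 and 259 CPM in MDA-MD-231 and 1453 and 2351 CPM in MDA-MD-468 (3.32 ± 0.42, edgeR BH-adjusted p = 0.00104). KRT80 (0.62 ± 0.38) and KRT10 (0.21 ± 0.26) did not pass, and KRT10 overlapped between the lines. KRT80 passed without the MDA-MD-231 parental library (1.39).

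The mesenchymal list ran the other way: of 39 of the 45 genes that passed the filter, 29 were lower in MDA-MD-468 and 6 higher, with a median of -3.96. VIM, the intermediate filament of mesenchymal cells (chromosome 10, 17228259 to 17237593), had 4996 and 6479 CPM in MDA-MD-231 and 16.2 and 43.2 CPM in MDA-MD-468 (-7.59 ± 0.56, edgeR BH-adjusted p = 0.000145). The 2 MDA-MD-468 libraries differed from each other for this gene, but both were far below either MDA-MD-231 library. ZEB1 (chromosome 10, 31318495 to 31529814) had 88.2 and 95.2 CPM in MDA-MD-231 and 0.252 and 0.194 CPM in MDA-MD-468 (-8.65 ± 0.27, edgeR BH-adjusted p = 2.07e-05). ZEB2 and SNAI2 had no read in MDA-MD-468. ZEB2 stood at 11.2 and 13.01 CPM in MDA-MD-231, at least 81.6-fold lower in MDA-MD-468, and SNAI2 at 25.9 and 52.4 CPM, at least 263-fold lower. CDH4, which encodes R-cadherin, was lost from 113 and 174 CPM to no read, at least 964-fold. AXL, a receptor kinase of mesenchymal cancer cells, had 1277 and 1479.5 CPM in MDA-MD-231 and 0.808 and 1.31 CPM in MDA-MD-468 (-10.33 ± 0.30, edgeR BH-adjusted p = 2.07e-05). TWIST1 and the N-cadherin gene CDH2 did not pass the filter. The EMT factor TWIST2 ran the other way, with no read in MDA-MD-231 and 4.39 and 5.59 CPM in MDA-MD-468 (at least 36.8-fold higher), and so did the gelatinase gene MMP2 (0.0900 and 0.227 CPM in MDA-MD-231 and 1.41 and 2.87 CPM in MDA-MD-468, 3.71 ± 0.64, edgeR BH-adjusted p = 0.00364). Both were picked after their values were seen. The other higher members were the smooth muscle genes TAGLN (3.64 and 5.39 CPM in MDA-MD-231 and 9.39 and 31.6 CPM in MDA-MD-468, 2.18 ± 0.58, edgeR BH-adjusted p = 0.0188) and TPM2 (1.67 ± 0.39), the procollagen protease gene BMP1 (1.61 ± 0.19) and the actin-binding CALD1 (0.89 ± 0.27). Leaving out the MDA-MD-468 parental library ended the calls of TAGLN (1.07), TPM2 (1.08) and CALD1 (0.55) and left 3 higher members. CALD1 also was not called without the MDA-MD-231 DMSO library (0.61). S100A4 (-1.02 ± 0.36, edgeR BH-adjusted p = 0.053) missed the threshold, and passed without the MDA-MD-231 DMSO library (-1.45) or the MDA-MD-468 parental library (-1.41). CAV2 did not pass (0.08 ± 0.25).

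Expression of CD44 and CD24, surface glycoproteins used together to sort breast cancer cells, passed the test for 1 of the 2 genes. CD24 had 15.9 and 13.4 CPM in MDA-MD-231 and 1376 and 2121 CPM in MDA-MD-468 (6.90 ± 0.30, edgeR BH-adjusted p = 3.75e-05). CD44 had 843 and 807 CPM in MDA-MD-231 and 981 and 2360.2 CPM in MDA-MD-468, and its difference of 1.02 ± 0.38, edgeR BH-adjusted p = 0.06 did not pass. The MDA-MD-468 parental library held more than the DMSO one. Without the MDA-MD-468 DMSO library CD44 passed at 1.52.

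**Figure D2:**
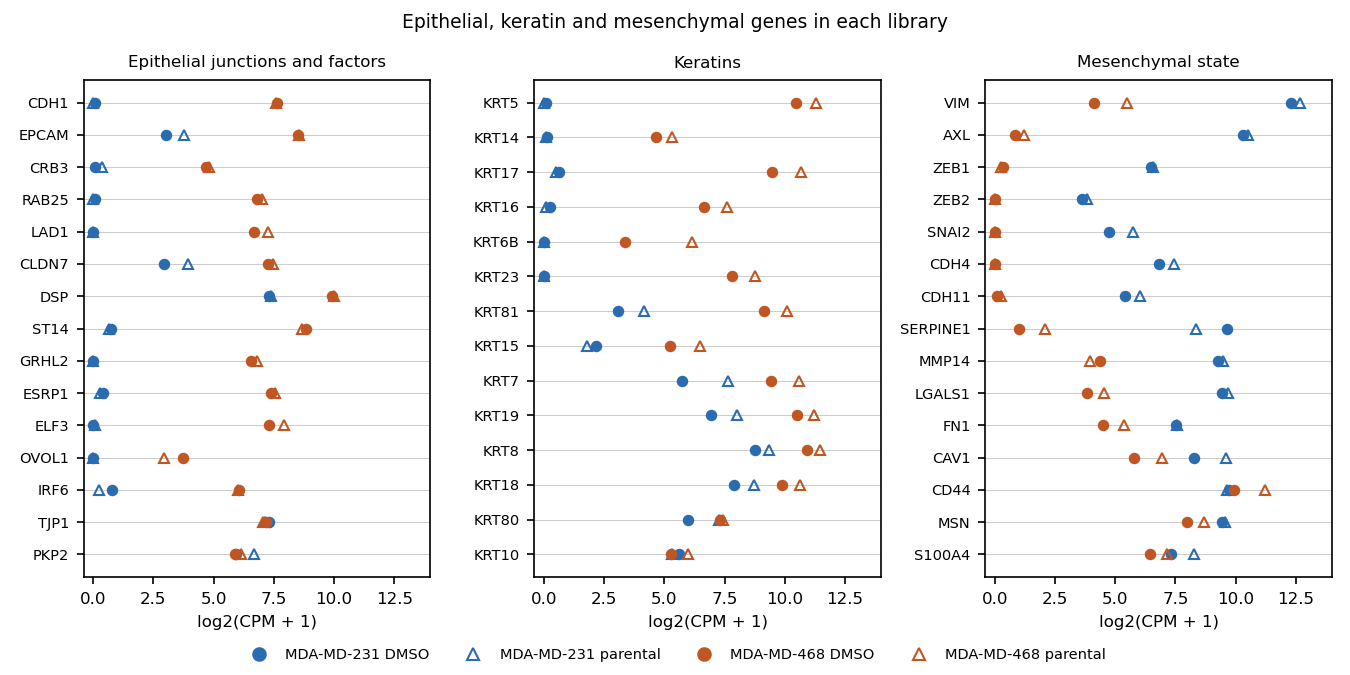
Levels of 15 junction genes and factors, 14 keratins and 15 mesenchymal genes in each of the 4 libraries, as log2(CPM + 1); filled circles are DMSO and open triangles parental, blue MDA-MD-231 and orange MDA-MD-468. The lines stand apart in most genes, while TJP1, PKP2, KRT10 and S100A4 lie close together.

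Matrix and adhesion genes were mostly lower in MDA-MD-468, though with members on both sides. Of 40 collagen, laminin and integrin genes that passed the filter (44 listed), 25 were lower and 11 higher, with a median of -1.72. COL6A2 had 22.9 and 27.8 CPM in MDA-MD-231 and no read in MDA-MD-468, at least 171-fold lower. Its partner chain COL6A1 had 102 and 132 CPM against 3 reads (1587-fold, 95% counting interval 539 to 7647), and the fibrillar collagen gene COL5A1 102 and 105 CPM against 2 reads (2135-fold, 95% counting interval 579.6 to 17303). COL8A1 fell from 219 and 425 CPM in MDA-MD-231 to 0.303 and 0.486 CPM in MDA-MD-468 (-9.65 ± 0.50, edgeR BH-adjusted p = 5.49e-05). The type I and III chains COL1A2 and COL3A1 did not pass the filter. The other type I chain, COL1A1, picked after its values were seen, was read in both lines. It had 20.9 and 13.8 CPM in MDA-MD-231 and 20.6 and 21.4 CPM in MDA-MD-468 (0.28 ± 0.26, edgeR BH-adjusted p = 0.406), and these libraries overlapped. ITGB6, an epithelial integrin chain, was unread in MDA-MD-231 and had 31.4 and 66.3 CPM in MDA-MD-468, at least 360.4-fold higher. COL5A2 (5.14 ± 0.66), LAMA4 (3.65 ± 0.48) and ITGB8 (3.23 ± 0.32) were also higher. The laminin-binding ITGB4 (0.34 ± 0.37) and ITGB5 (0.30 ± 0.15) did not pass, ITGB4 being called only without the MDA-MD-231 parental library (0.92). Without the MDA-MD-468 parental library 7 members were higher, and with the third MDA-MD-231 library 7.

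Host genes of microRNAs were read as poly(A) transcripts. Mature microRNAs are not captured by these tags and were not measured, so only the host genes are compared. Of 19 host genes that passed the filter (26 listed), 7 were higher and 5 lower in MDA-MD-468, against shares over all genes of 28.7% and 26.5%. MIR200CHG, the host of 2 miR-200 family members, had no read in MDA-MD-231 and 0.909 and 0.875 CPM in MDA-MD-468, at least 6.58-fold higher, at a low level. MIR205HG had none against 22.4 and 48.00 CPM, at least 259.98-fold higher, and MIR31HG none against 4.80 and 5.83 CPM, at least 39.2-fold higher. MIR100HG was read at 18.2 and 25.8 CPM in MDA-MD-231 and once in MDA-MD-468 (906-fold, 95% counting interval 159 to 35106). The mature sequences encoded in these 4 hosts are printed below from RefSeq (GRCh38.p14), 5′ to 3′, with the seed, bases 2 to 8, in capitals, since the seed sets which mRNAs a microRNA pairs with.
hsa-miR-200c-3p (MIR200CHG): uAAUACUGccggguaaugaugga
hsa-miR-141-3p (MIR200CHG): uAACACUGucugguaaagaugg
hsa-miR-205-5p (MIR205HG): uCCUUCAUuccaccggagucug
hsa-miR-31-5p (MIR31HG): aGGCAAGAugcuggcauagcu
hsa-miR-100-5p (MIR100HG): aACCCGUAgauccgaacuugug
hsa-miR-125b-5p (MIR100HG): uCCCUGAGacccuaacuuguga
hsa-let-7a-5p (MIR100HG): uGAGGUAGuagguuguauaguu
No 2 of these 7 share a seed. Those of miR-200c-3p and miR-141-3p, both members of the miR-200 family, are AAUACUG and AACACUG. Among the other hosts MIR34AHG (3.68 ± 0.54), MIR193BHG (2.77 ± 0.64) and MIR924HG (0.85 ± 0.29) were higher, and MIR9-1HG was higher on 2 reads in MDA-MD-231 (38.1-fold, 95% counting interval 10.2 to 323). MIR503HG (-2.68 ± 0.41), MIR222HG (-2.09 ± 0.60), MIR22HG (-1.04 ± 0.35) and MIR4435-2HG (-0.65 ± 0.20) were lower. The count of lower hosts was 3 without either MDA-MD-468 library and likewise without the MDA-MD-231 DMSO one. MIR222HG was not called without the MDA-MD-231 DMSO library (-1.60) or the MDA-MD-468 DMSO library (-1.51), and MIR193BHG without the MDA-MD-468 parental one (2.27). MIR924HG was not called without the MDA-MD-231 DMSO library (0.63), MDA-MD-468 DMSO library (0.86) or the parental one (0.85). MIR22HG was not called without the MDA-MD-231 DMSO library (-0.67) or the MDA-MD-468 parental one (-0.76). MIR4435-2HG was not called without the MDA-MD-231 parental (-0.48) or either MDA-MD-468 library (-0.54 and -0.77). MIR17HG, MIR23AHG, MIR99AHG, MIR210HG, MIR600HG, MIRLET7BHG and MIR29B2CHG did not pass.

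Receptor tyrosine kinases, which pass growth factor signals into the cell, differed in both directions. Of 32 that passed the filter (36 listed), 13 were higher and 9 lower in MDA-MD-468, and the median was 0.10. This is 68.8% called, against 55.2% over all genes. EGFR (chromosome 7, 55019021 to 55211628) had 589 and 472 CPM in MDA-MD-231 and 3802 and 4715 CPM in MDA-MD-468, which is 8.03-fold more in MDA-MD-468 on average (3.00 ± 0.21, edgeR BH-adjusted p = 0.000115). DDR1, a collagen receptor of epithelial cells, had 20.2 and 38.7 CPM in MDA-MD-231 and 609.8 and 819.8 CPM in MDA-MD-468 (4.60 ± 0.36, edgeR BH-adjusted p = 0.000181). FGFR2 had 0.675 and 0.0906 CPM in MDA-MD-231 and 38.3 and 20.9 CPM in MDA-MD-468 (6.25 ± 0.69, edgeR BH-adjusted p = 0.000637). The ephrin receptor gene EPHB6 had 1 read in MDA-MD-231 against 80.2 and 107 CPM in MDA-MD-468 (4122-fold, 95% counting interval 744 to 163909). On the other side, EPHA2 had 606 and 479 CPM in MDA-MD-231 and 116 and 101 CPM in MDA-MD-468 (-2.32 ± 0.18, edgeR BH-adjusted p = 0.000185). FGFR1 (-1.50 ± 0.24) and MERTK, a kinase of the AXL family (-2.73 ± 0.27), were lower as well. ERBB2, the gene of HER2, had 77.3 and 62.4 CPM in MDA-MD-231 and 57.2 and 75.8 CPM in MDA-MD-468, and its libraries overlapped (-0.07 ± 0.21, edgeR BH-adjusted p = 0.789). PTK7 (0.21 ± 0.14) and EPHB2 (-0.09 ± 0.16) did not pass.

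The ligands were divided in the same way, with 11 of 25 higher and 10 lower (28 listed; median 0.05). NRG1, the neuregulin that activates ERBB3 and ERBB4, had 35.4 and 105 CPM in MDA-MD-231 and no read in MDA-MD-468, at least 473-fold lower. The lymphatic growth factor VEGFC (57.1 and 55.2 CPM) and FGF5 (29.8 and 43.7 CPM) were also unread in MDA-MD-468, at least 378-fold and 247-fold lower. PROS1, a ligand of the AXL family, had 42.9 and 39.8 CPM in MDA-MD-231 and 0.454 and 0.583 CPM in MDA-MD-468 (-6.30 ± 0.29, edgeR BH-adjusted p = 4.16e-05). EGF itself was higher in MDA-MD-468 at a low level, with 1.12 and 1.40 CPM in MDA-MD-231 and 12.6 and 7.48 CPM in MDA-MD-468 (2.98 ± 0.40, edgeR BH-adjusted p = 0.00132). PDGFB (6.96 ± 0.53) and EFNA1 (2.63 ± 0.20) were higher, as was FGFBP1, a carrier of FGFs, with 19.4 and 51.6 CPM against no read (at least 262-fold).

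In the list of RAS and ERK genes, which holds pathway members beside the genes that ERK signalling induces and its feedback inhibitors, 20 of 33 were lower in MDA-MD-468, 3 higher and 10 did not pass, with a median of -0.87. DUSP6, the ERK phosphatase, had 425 and 467 CPM in MDA-MD-231 and 13.1 and 14.8 CPM in MDA-MD-468 (-5.00 ± 0.18, edgeR BH-adjusted p = 2.81e-05). FOSL1, an AP-1 subunit, had 402 and 318 CPM in MDA-MD-231 and 12.8 and 28.8 CPM in MDA-MD-468 (-4.12 ± 0.40, edgeR BH-adjusted p = 0.000394). PHLDA1 had 749 and 836 CPM in MDA-MD-231 and 39.3 and 62.8 CPM in MDA-MD-468 (-3.96 ± 0.26, edgeR BH-adjusted p = 0.000107). The ETS factor ETV1 had 94.4 and 81.9 CPM in MDA-MD-231 and 4.85 and 3.84 CPM in MDA-MD-468 (-4.34 ± 0.22, edgeR BH-adjusted p = 5.34e-05). For these 4 genes the libraries of the 2 lines did not overlap, as held for 79.9% of all genes tested. The higher members were NF1, a RAS GTPase-activating protein (37.8 and 32.9 CPM in MDA-MD-231 and 118 and 131 CPM in MDA-MD-468, 1.82 ± 0.17, edgeR BH-adjusted p = 0.000325), the ERK1 gene MAPK3 (0.89 ± 0.22) and IER3 (0.51 ± 0.15). MAPK3 was not called without the MDA-MD-468 parental library (0.79). IER3 was not called without the MDA-MD-231 parental (0.43), MDA-MD-468 DMSO library (0.56) or the parental one (0.47). The count of higher members was 1 without the MDA-MD-468 parental and 5 without the MDA-MD-231 DMSO library. The RAS gene NRAS (-0.11 ± 0.14) did not pass.

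**Figure D3:**
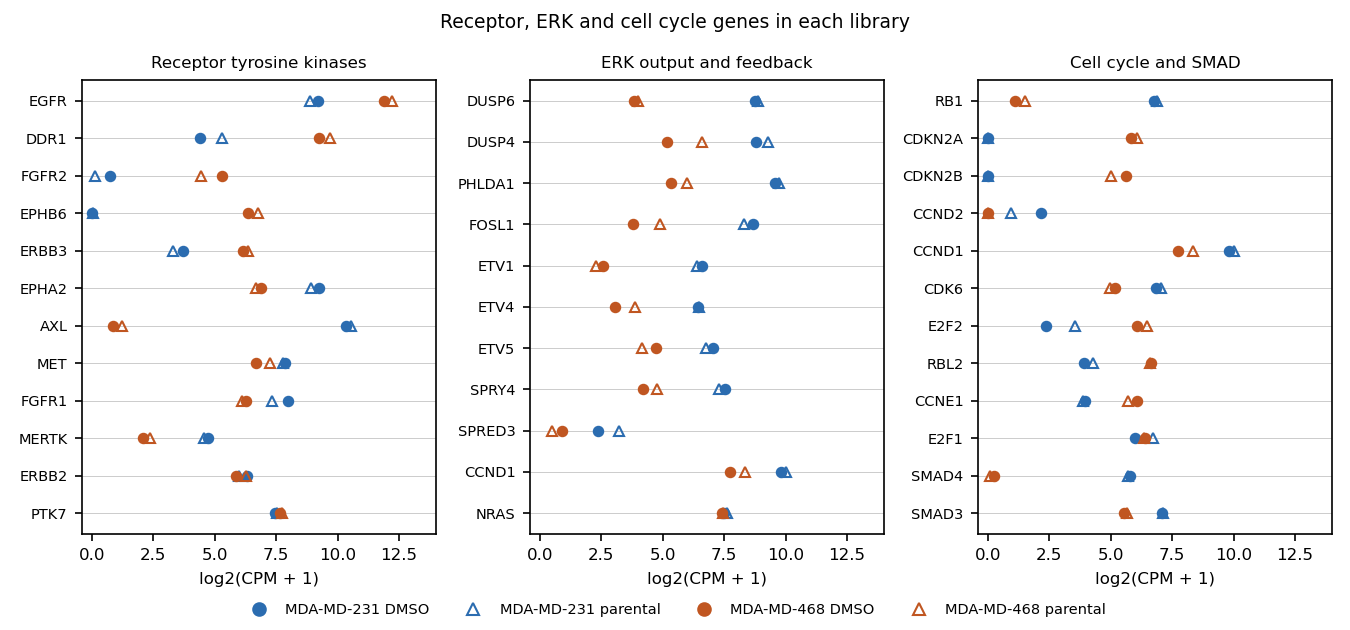
Levels of 12 receptor tyrosine kinases, 11 genes of ERK output and RAS, and 12 cell cycle and SMAD genes in each of the 4 libraries, as log2(CPM + 1), with symbols as in the plot of epithelial and mesenchymal genes. EGFR lies to the right and the ERK-induced genes DUSP6, DUSP4, PHLDA1 and FOSL1 to the left in MDA-MD-468.

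In the PI3K pathway, which carries growth and survival signals, 10 of 24 tested genes were lower and 4 higher in MDA-MD-468 (26 listed; median -0.26). PIK3R3, a regulatory subunit of PI3K, had 29.2 and 15.1 CPM in MDA-MD-231 and 172 and 194 CPM in MDA-MD-468 (3.05 ± 0.32, edgeR BH-adjusted p = 0.000542), and FOXO3, a factor that AKT inhibits, had 50.8 and 47.7 CPM in MDA-MD-231 and 139 and 136 CPM in MDA-MD-468 (1.48 ± 0.15, edgeR BH-adjusted p = 0.000458). PIK3CD (-3.36 ± 0.30), the kinase gene SGK1 (-2.96 ± 0.28) and the insulin receptor substrate IRS1 (-2.62 ± 0.34) were lower. AKT1 (0.61 ± 0.14) and PIK3CB (0.75 ± 0.16) were higher. AKT1 was not called without either MDA-MD-468 library (0.60 without DMSO, 0.62 without parental), and PIK3CB without the DMSO one (0.68). Without the MDA-MD-468 DMSO or parental library 6 and 5 genes were lower, and without the DMSO one 2 were higher. AKT2 (0.29 ± 0.16) and TSC2 (0.32 ± 0.18) did not pass.

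The G1 control genes differed strongly and in opposite ways between the lines. RB1, which encodes the protein that holds E2F factors in check (chromosome 13, 48303726 to 48599436), had 107 and 117 CPM in MDA-MD-231 and 1.16 and 1.85 CPM in MDA-MD-468 (-6.21 ± 0.27, edgeR BH-adjusted p = 3.68e-05). CDKN2A, the gene of the CDK4 and CDK6 inhibitor p16 (chromosome 9, 21967753 to 21995301), had no read in MDA-MD-231 and 54.99 and 65.9 CPM in MDA-MD-468, at least 446-fold higher. Its neighbour CDKN2B, the gene of p15, had none against 47.6 and 31.2 CPM, at least 291-fold. Neither gene had a read in the third MDA-MD-231 library. The D-type cyclin gene CCND1 had 891 and 1026 CPM in MDA-MD-231 and 211 and 327 CPM in MDA-MD-468 (-1.83 ± 0.24, edgeR BH-adjusted p = 0.00117). The kinase gene CDK6 had 115 and 130.3 CPM in MDA-MD-231 and 34.8 and 30.2 CPM in MDA-MD-468 (-1.92 ± 0.17, edgeR BH-adjusted p = 0.000294), both lower in MDA-MD-468. RBL2, an RB relative, had 14.2 and 18.1 CPM in MDA-MD-231 and 98.5 and 95.1 CPM in MDA-MD-468 (2.58 ± 0.19, edgeR BH-adjusted p = 0.000153). E2F2 had 4.09 and 10.6 CPM in MDA-MD-231 and 65.1 and 87.02 CPM in MDA-MD-468 (3.37 ± 0.45, edgeR BH-adjusted p = 0.00126), both higher. Over the list 12 of 24 genes were lower and 6 higher, with a median of -0.66. E2F1 (-0.01 ± 0.25) and E2F3 (-0.20 ± 0.16) did not pass. CDKN1A, the p53 target p21, overlapped: it had 223 and 53.2 CPM in MDA-MD-231 and 102 and 46.4 CPM in MDA-MD-468, with the DMSO library higher in each line (-0.90 ± 0.66, edgeR BH-adjusted p = 0.286). It was called without the MDA-MD-231 parental (-1.59) or the MDA-MD-468 DMSO library (-1.56).

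Genes of DNA replication mostly did not pass, with 5 of 36 higher and 5 lower (median -0.13). MCM6 of the replicative helicase had 63.2 and 106 CPM in MDA-MD-231 and 189 and 189 CPM in MDA-MD-468 (1.16 ± 0.25, edgeR BH-adjusted p = 0.00852). The sliding clamp PCNA had 251 and 276 CPM in MDA-MD-231 and 491 and 434 CPM in MDA-MD-468 (0.81 ± 0.15, edgeR BH-adjusted p = 0.00482). RFC5 of the clamp loader (-1.36 ± 0.18), MCM10 (-1.14 ± 0.23) and TK1 (-0.97 ± 0.19) were lower. RRM2, a ribonucleotide reductase subunit, did not pass (-0.10 ± 0.19). The count of lower genes was 15 without the MDA-MD-231 DMSO library and 3 without the MDA-MD-468 parental one, and that of higher genes 8 without the MDA-MD-231 parental and 3 without the MDA-MD-468 parental library. Genes of G2 and mitosis were lower in MDA-MD-468 in 18 of 28 cases and higher in 1 (median -0.70). The mitotic kinase gene AURKB had 174 and 185 CPM in MDA-MD-231 and 54.5 and 49.9 CPM in MDA-MD-468 (-1.78 ± 0.15, edgeR BH-adjusted p = 0.000247). The spindle motor KIF11 had 321 and 324 CPM in MDA-MD-231 and 102 and 85.9 CPM in MDA-MD-468 (-1.78 ± 0.16, edgeR BH-adjusted p = 0.000288). TOP2A had 848 and 858 CPM in MDA-MD-231 and 353 and 383 CPM in MDA-MD-468 (-1.21 ± 0.14, edgeR BH-adjusted p = 0.000852). TPX2, which builds the spindle, had 554 and 605 CPM in MDA-MD-231 and 244 and 263 CPM in MDA-MD-468 (-1.19 ± 0.15, edgeR BH-adjusted p = 0.000965). HMMR alone was higher (15.97 and 19.5 CPM in MDA-MD-231 and 94.2 and 76.96 CPM in MDA-MD-468, 2.27 ± 0.20, edgeR BH-adjusted p = 0.00029), and CDK1 did not pass (-0.37 ± 0.16) unless the MDA-MD-231 DMSO library was left out (-0.54). The list rested on which MDA-MD-231 libraries were used. With the third one, where TOP2A had 355 and TPX2 225 CPM, 2 genes were lower, and without the MDA-MD-468 parental library 10.

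The gene of SMAD4, the mediator shared by TGF-beta and BMP signals, was nearly unread in MDA-MD-468. SMAD4 (chromosome 18, 51028394 to 51085045) had 53.8 and 50.5 CPM in MDA-MD-231 and 0.202 and 0.0486 CPM in MDA-MD-468 (-8.65 ± 0.41, edgeR BH-adjusted p = 4.53e-05). Over the list 12 of 39 tested genes were higher and 11 lower (40 listed; median 0.22), near the shares over all genes of 28.7% and 26.5%. BMP ligands stood on both sides, and so did the called antagonists. The antagonist BAMBI, picked after its values were seen, was higher (0.86 ± 0.27, edgeR BH-adjusted p = 0.0321). BMP4 had 108 and 298 CPM in MDA-MD-231 and 6.97 and 8.41 CPM in MDA-MD-468 (-4.72 ± 0.51, edgeR BH-adjusted p = 0.000603), and the BMP antagonists FST (82.4 and 318 CPM in MDA-MD-231 and 0.757 and 1.17 CPM in MDA-MD-468, -7.69 ± 0.80, edgeR BH-adjusted p = 0.000517) and NOG (46.3 and 136 CPM in MDA-MD-231 and 0.505 and 0.486 CPM in MDA-MD-468, -7.50 ± 0.68, edgeR BH-adjusted p = 0.0003) were lower too. For all 3, the MDA-MD-231 parental library held more than the DMSO one. BMP7 had 1 read in MDA-MD-231 and 43.6 and 45.9 CPM in MDA-MD-468 (1989.9-fold, 95% counting interval 356 to 78379.5), and BMP2 0.405 and 0.136 CPM in MDA-MD-231 and 9.49 and 13.6 CPM in MDA-MD-468 (5.38 ± 0.53, edgeR BH-adjusted p = 0.0004). LTBP3, which anchors latent TGF-beta, had 4.23 and 3.81 CPM in MDA-MD-231 and 65.6 and 76.1 CPM in MDA-MD-468 (4.14 ± 0.21, edgeR BH-adjusted p = 5.34e-05), and ID4, a BMP-induced inhibitor of differentiation factors, was higher (4.01 ± 0.52). TGFBR1 (-0.02 ± 0.18) and SMAD5 (-0.39 ± 0.15) did not pass.

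In the WNT pathway 17 of 35 tested genes were higher and 12 lower (36 listed; median 0.12). The ligand gene WNT6 had no read in MDA-MD-231 and 82.01 and 110.2 CPM in MDA-MD-468, at least 709.5-fold higher. The secreted WNT antagonist SFRP1 had 0.0900 and 0.952 CPM in MDA-MD-231 and 208 and 357 CPM in MDA-MD-468 (9.07 ± 0.68, edgeR BH-adjusted p = 0.000153). The intracellular antagonist NKD1 had 0.270 and 0 CPM in MDA-MD-231 and 49.7 and 59.8 CPM in MDA-MD-468 (8.60 ± 0.61, edgeR BH-adjusted p = 0.000126). DKK1, another secreted antagonist, went the other way with 304 and 784 CPM in MDA-MD-231 and 9.44 and 36.4 CPM in MDA-MD-468 (-4.57 ± 0.75, edgeR BH-adjusted p = 0.00287). Among the nuclear factors, TCF7L1 was higher (0.315 and 0.272 CPM in MDA-MD-231 and 40.8 and 64.6 CPM in MDA-MD-468, 7.46 ± 0.40, edgeR BH-adjusted p = 5.74e-05) and LEF1 had 14.4 and 11.4 CPM in MDA-MD-231 against 2 reads in MDA-MD-468 (256-fold, 95% counting interval 71.8 to 2158). The receptor FZD8 (-5.11 ± 0.50) and the ligand WNT5B (-4.36 ± 0.48) were lower, while FZD6, LRP6 and APC did not pass.

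CDK7, the kinase of TFIIH and the CDK-activating kinase, and CDK9, the kinase of P-TEFb that releases paused RNA polymerase II, are the kinases at which the series aims. CDK7 had 65.1 and 54.6 CPM in MDA-MD-231 and 34.5 and 32.02 CPM in MDA-MD-468 (-0.85 ± 0.18, edgeR BH-adjusted p = 0.00755). CDK9 had 56.7 and 68.8 CPM in MDA-MD-231 and 38.7 and 39.7 CPM in MDA-MD-468 (-0.68 ± 0.18, edgeR BH-adjusted p = 0.017). Both genes were lower in MDA-MD-468 and did not overlap between the lines, as held for 79.9% of all genes tested. CDK7 was not called without the MDA-MD-468 parental library (-0.78). CDK9 was not called without the MDA-MD-231 parental (-0.53), the MDA-MD-468 DMSO (-0.66) or its parental library (-0.69). The partners of CDK7, cyclin H (CCNH, 57.97 and 82.3 CPM in MDA-MD-231 and 33.99 and 34.5 CPM in MDA-MD-468, -1.03 ± 0.21, edgeR BH-adjusted p = 0.00693) and MNAT1 (34.2 and 37.7 CPM in MDA-MD-231 and 18.03 and 15.9 CPM in MDA-MD-468, -1.08 ± 0.20, edgeR BH-adjusted p = 0.00429), and the TFIIH helicase gene ERCC2 (94.9 and 132 CPM in MDA-MD-231 and 35.2 and 39.8 CPM in MDA-MD-468, -1.60 ± 0.21, edgeR BH-adjusted p = 0.00125) were lower as well. CCNH and MNAT1 were no longer called without the MDA-MD-468 parental library (-1.03 and -0.98). HEXIM1, which holds P-TEFb inactive, was lower (-0.93 ± 0.15, edgeR BH-adjusted p = 0.0025). The Mediator kinase CDK19 (36.6 and 31.4 CPM in MDA-MD-231 and 94.8 and 77.2 CPM in MDA-MD-468, 1.34 ± 0.19, edgeR BH-adjusted p = 0.00155) and its cyclin CCNC (65.3 and 59.5 CPM in MDA-MD-231 and 146 and 146 CPM in MDA-MD-468, 1.23 ± 0.15, edgeR BH-adjusted p = 0.00093) were higher, as were MEPCE (0.69 ± 0.15) and the P-TEFb cyclin CCNT2 (0.66 ± 0.18). MEPCE was not called without the MDA-MD-468 DMSO (0.64) or parental library (0.76), and CCNT2 also without the MDA-MD-231 parental one (0.54, with 0.69 and 0.63 for the former 2). Over the list 9 of 26 genes were lower and 5 higher (53.8% called, against 55.2% over all genes). These counts were 5 and 2 without the MDA-MD-468 DMSO library and 2 and 2 without the parental one. SUPT5H (0.08 ± 0.20) and AFF4 (-0.09 ± 0.18) did not pass, nor did POLR2A (-0.34 ± 0.24), which was called without the MDA-MD-231 parental library (-0.64).

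Among genes that restrain apoptosis, BCL2L1, which encodes BCL-XL, had 451 and 502 CPM in MDA-MD-231 and 122 and 122 CPM in MDA-MD-468 (-1.97 ± 0.15, edgeR BH-adjusted p = 0.000158). MCL1, a short-lived survival protein, had 552 and 491 CPM in MDA-MD-231 and 477 and 421 CPM in MDA-MD-468 and did not pass (-0.22 ± 0.15, edgeR BH-adjusted p = 0.269). BIRC2 (-0.72 ± 0.15) and BCL2 (-0.69 ± 0.21) were lower and CFLAR (0.76 ± 0.17) higher, and the remaining 5 of 9 tested did not pass (11 listed). BIRC2 (-0.67), BCL2 (-0.66) and CFLAR (0.69) lost their calls without the MDA-MD-468 parental library. BCL2 was not called without the MDA-MD-231 parental (-0.58) or the MDA-MD-468 DMSO library (-0.71). Of 23 tested pro-apoptotic and death receptor genes (24 listed) 9 were lower and 6 higher (65.2% called, against 55.2% over all genes). The TRAIL receptor gene TNFRSF10B had 172 and 144 CPM in MDA-MD-231 and 37.2 and 36.1 CPM in MDA-MD-468 (-2.10 ± 0.17, edgeR BH-adjusted p = 0.000188). The decoy receptor TNFRSF10D had 44.6 and 57.6 CPM in MDA-MD-231 and 4.90 and 4.81 CPM in MDA-MD-468 (-3.39 ± 0.23, edgeR BH-adjusted p = 0.000115). PMAIP1, the gene of NOXA, was lower (-1.33 ± 0.24) and so was APAF1 (-1.31 ± 0.25), whereas the BH3-only genes BMF (2.39 ± 0.34), BID (1.83 ± 0.28) and BCL2L11 (1.37 ± 0.30) were higher. Without the MDA-MD-468 parental library 5 of this list were lower. Genes that p53 induces mostly did not pass (15 of 25), and 40% were called, against 55.2% over all genes. The 6 higher ones included PHLDA3 (6.07 and 6.93 CPM in MDA-MD-231 and 70.5 and 85.2 CPM in MDA-MD-468, 3.58 ± 0.21, edgeR BH-adjusted p = 7.26e-05) and PERP, a desmosome-associated gene (118 and 114 CPM in MDA-MD-231 and 396 and 438 CPM in MDA-MD-468, 1.85 ± 0.15, edgeR BH-adjusted p = 0.000191). The 4 lower ones included BAX (-1.09 ± 0.22).

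Of 31 proto-oncogene transcription factors tested (32 listed) 8 were higher and 7 lower, near the shares over all genes (median -0.04). MYC had 173 and 152 CPM in MDA-MD-231 and 58.1 and 133 CPM in MDA-MD-468 and missed the threshold (-0.77 ± 0.36, edgeR BH-adjusted p = 0.115). The MDA-MD-468 DMSO library held less than the parental one, and without the latter MYC passed at -1.47. The chromatin protein HMGA2 had 107 and 107 CPM in MDA-MD-231 and 1.06 and 2.38 CPM in MDA-MD-468 (-5.95 ± 0.36, edgeR BH-adjusted p = 7.92e-05), HMGA1 1713 and 1794 CPM in MDA-MD-231 and 362 and 467 CPM in MDA-MD-468 (-2.08 ± 0.18, edgeR BH-adjusted p = 0.000269). ETS1 had 296 and 340.3 CPM in MDA-MD-231 and 60.1 and 96.4 CPM in MDA-MD-468 (-2.02 ± 0.25, edgeR BH-adjusted p = 0.000964), all lower. EN1, a homeobox factor, had no read in MDA-MD-231 and 9.04 and 16.5 CPM in MDA-MD-468 (at least 94.4-fold higher), and RUNX3 had 1 read against 36.3 and 37.9 CPM (1651-fold, 95% counting interval 295 to 65034). SOX4 (2.67 ± 0.28) and NFIB (1.48 ± 0.16) were higher, and YAP1 did not pass (-0.04 ± 0.16).

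The oestrogen and progesterone receptor genes ESR1 and PGR were low in both lines. ESR1 had 2 reads in MDA-MD-231 and 4.04 and 5.25 CPM in MDA-MD-468 (103-fold, 95% counting interval 28.2 to 858). PGR had 4 reads in MDA-MD-231 and none in MDA-MD-468, too few to test. Of the hormone receptor and luminal list, 10 of 17 tested genes (22 listed) were higher and 2 lower in MDA-MD-468. FOXA1, the pioneer factor of luminal cells, had 0.315 and 0.0906 CPM in MDA-MD-231 and 36.5 and 51.8 CPM in MDA-MD-468 (7.72 ± 0.47, edgeR BH-adjusted p = 8.23e-05). The prolactin receptor PRLR had 0.989 and 1.18 CPM in MDA-MD-231 and 66.3 and 56.9 CPM in MDA-MD-468 (5.82 ± 0.25, edgeR BH-adjusted p = 3.68e-05). SPDEF was higher (2.86 ± 0.57, edgeR BH-adjusted p = 0.00626) and the zinc transporter SLC39A6 lower (-0.88 ± 0.17, edgeR BH-adjusted p = 0.00535).

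The MHC class II invariant chain CD74 had 204 and 240.3 CPM in MDA-MD-231 and 1 read in MDA-MD-468 (9154-fold, 95% counting interval 1611 to 354627). HLA-DRA had 17.9 and 26.5 CPM and HLA-DRB1 9.09 and 10.97 CPM in MDA-MD-231, and neither had a read in MDA-MD-468 (at least 149.6-fold and 67.5-fold lower). CD274, the gene of the checkpoint ligand PD-L1, had 32.4 and 55.3 CPM in MDA-MD-231 and 0.757 and 1.12 CPM in MDA-MD-468 (-5.54 ± 0.40, edgeR BH-adjusted p = 0.000139). Of the class I genes, HLA-C had 214 and 218 CPM in MDA-MD-231 and 527 and 533 CPM in MDA-MD-468 (1.29 ± 0.14, edgeR BH-adjusted p = 0.000578) and HLA-F was higher at a low level (3.65 ± 0.29), while HLA-B (0.05 ± 0.17) and HLA-E (-0.16 ± 0.14) did not pass. Reads of HLA genes can be split between near-identical copies. Over the list 12 of 24 genes were lower and 6 higher, the latter 3 without the MDA-MD-468 parental library. The immune cell markers above give the level of other cells beside these values, and their part was not tested.

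Interferon-stimulated genes went both ways, with 11 of 34 tested higher and 6 lower (35 listed, median 0.27). Of these 34, 50% were called, against 55.2% over all genes. MX1, an antiviral GTPase, had 4.95 and 3.26 CPM in MDA-MD-231 and 159 and 242 CPM in MDA-MD-468 (5.61 ± 0.33, edgeR BH-adjusted p = 7.25e-05). OAS1 had 0.765 and 0.952 CPM in MDA-MD-231 and 22.7 and 37.1 CPM in MDA-MD-468 (5.11 ± 0.38, edgeR BH-adjusted p = 0.00015). IFIT3 had 88.9 and 130.4 CPM in MDA-MD-231 and 17.2 and 22.4 CPM in MDA-MD-468 (-2.47 ± 0.25, edgeR BH-adjusted p = 0.000486). IFIT2 had 37.3 and 60.95 CPM in MDA-MD-231 and 9.14 and 9.67 CPM in MDA-MD-468 (-2.38 ± 0.28, edgeR BH-adjusted p = 0.000852), so members of 1 response were on opposite sides. IFITM2 was lower (-4.56 ± 0.26) and IFITM3 did not pass (0.50 ± 0.19, and 0.64 with a call without the MDA-MD-231 parental library), a pair of near-identical genes that can share reads. Of inflammatory genes 9 of 28 tested were higher and 7 lower (38 listed), near the shares over all genes. The cytokine gene IL11 had 102 and 143 CPM in MDA-MD-231 and 1.46 and 0.437 CPM in MDA-MD-468 (-7.01 ± 0.48, edgeR BH-adjusted p = 0.000113), and LIF was lower (-1.11 ± 0.35) but was not called without the MDA-MD-231 DMSO library (-1.08) or the MDA-MD-468 DMSO library (-0.65). LCN2, an iron-binding secreted protein, had 0.0900 and 0.136 CPM in MDA-MD-231 and 61.2 and 99.8 CPM in MDA-MD-468 (9.41 ± 0.45, edgeR BH-adjusted p = 4.61e-05), with 5 reads in all in MDA-MD-231. The chemokine CXCL16 had 0.765 and 0.680 CPM in MDA-MD-231 and 50.8 and 64.3 CPM in MDA-MD-468 (6.30 ± 0.28, edgeR BH-adjusted p = 3.80e-05). Without the MDA-MD-468 parental library 4 of these genes were higher and 13 lower.

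Hypoxia and glycolysis genes were lower in MDA-MD-468 in 20 of 30 cases and higher in 5 (median -0.79), and some related isoforms stood on opposite sides. The lactate transporter SLC16A3 had 262 and 473 CPM in MDA-MD-231 and 4.19 and 6.70 CPM in MDA-MD-468 (-6.07 ± 0.40, edgeR BH-adjusted p = 0.000107). Its relative SLC16A1 had 0.765 and 0.634 CPM in MDA-MD-231 and 45.95 and 42.7 CPM in MDA-MD-468 (5.97 ± 0.27, edgeR BH-adjusted p = 4.01e-05). The phosphofructokinase gene PFKM had 60.8 and 69.9 CPM in MDA-MD-231 and 10.3 and 10.01 CPM in MDA-MD-468 (-2.69 ± 0.19, edgeR BH-adjusted p = 0.000125). PFKL had 97.2 and 100.2 CPM in MDA-MD-231 and 247 and 267 CPM in MDA-MD-468 (1.38 ± 0.14, edgeR BH-adjusted p = 0.000511). The glucose transporter SLC2A3 had 39.8 and 36.9 CPM in MDA-MD-231 and 0.404 and 0.486 CPM in MDA-MD-468 (-6.41 ± 0.29, edgeR BH-adjusted p = 4.15e-05). The hypoxia-induced genes CA9 (0 and 0.227 CPM in MDA-MD-231 and 15.2 and 33.2 CPM in MDA-MD-468, 7.67 ± 0.83, edgeR BH-adjusted p = 0.000581) and EGLN3 (0.540 and 0.499 CPM in MDA-MD-231 and 54.5 and 94.1 CPM in MDA-MD-468, 7.14 ± 0.40, edgeR BH-adjusted p = 6.71e-05) were higher in MDA-MD-468. LDHA (-0.03 ± 0.24) and PGK1 (0.34 ± 0.15) did not pass. Without either MDA-MD-468 library 13 genes of this list were lower.

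Genes of cholesterol synthesis were higher in MDA-MD-468 in 15 of 23 cases and lower in 1 (median 1.18). MVD had 27.1 and 25.7 CPM in MDA-MD-231 and 286 and 232 CPM in MDA-MD-468 (3.30 ± 0.18, edgeR BH-adjusted p = 6.44e-05), DHCR7, which makes the last step to cholesterol, 64.8 and 70.9 CPM in MDA-MD-231 and 523 and 391 CPM in MDA-MD-468 (2.75 ± 0.20, edgeR BH-adjusted p = 0.000133). SC5D had 80.1 and 43.96 CPM in MDA-MD-231 and 299.5 and 196 CPM in MDA-MD-468 (2.00 ± 0.34, edgeR BH-adjusted p = 0.00323). With the third MDA-MD-231 library, in which DHCR7 had 244 CPM, 7 genes were higher.

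Aldehyde and glutathione enzymes were divided, 14 higher and 11 lower of 33 tested (35 listed). ALDH1A3, the aldehyde dehydrogenase that makes retinoic acid in breast cells, had 2.83 and 3.53 CPM in MDA-MD-231 and 418 and 1086 CPM in MDA-MD-468 (7.88 ± 0.57, edgeR BH-adjusted p = 0.000136). AKR1B10 had 0.0900 and 0.317 CPM in MDA-MD-231 and 32.5 and 64.9 CPM in MDA-MD-468 (7.86 ± 0.60, edgeR BH-adjusted p = 0.000162), and AKR1C2 was higher (7.69 ± 0.44) but is near-identical to AKR1C1. GPX3, the secreted glutathione peroxidase, had 109 and 106 CPM in MDA-MD-231 and no read in MDA-MD-468, at least 723-fold lower. The cystine transporter SLC7A11 had 119.5 and 136 CPM in MDA-MD-231 and 36.4 and 21.5 CPM in MDA-MD-468 (-2.14 ± 0.27, edgeR BH-adjusted p = 0.00107), and GSTM1 had 7.65 and 15.00 CPM against 3 reads (153-fold, 95% counting interval 51.8 to 741). SOD1, GPX4 and GCLM did not pass.

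S100 proteins, small calcium binders of the epidermal cluster on chromosome 1, held some of the largest differences. S100A9 had no read in MDA-MD-231 and 701 and 945 CPM in MDA-MD-468 (at least 6077-fold higher), and its partner S100A8 had 1 read against 169 and 237 CPM (9028-fold, 95% counting interval 1619 to 356414). S100A14 had 0.225 and 0.0906 CPM in MDA-MD-231 and 388 and 548 CPM in MDA-MD-468 (11.48 ± 0.39, edgeR BH-adjusted p = 2.60e-05). S100A6 was lower (1153 and 1818 CPM in MDA-MD-231 and 503 and 764 CPM in MDA-MD-468, -1.23 ± 0.29, edgeR BH-adjusted p = 0.0119), as were the annexins ANXA6 (291 and 446 CPM in MDA-MD-231 and 36.6 and 38.1 CPM in MDA-MD-468, -3.30 ± 0.24, edgeR BH-adjusted p = 0.000144), ANXA5 (-1.06 ± 0.15) and ANXA2 (-0.74 ± 0.18), and ANXA2 was not called without the MDA-MD-468 DMSO library (-0.64). In all 11 of 24 tested were higher and 5 lower, the latter 3 without the MDA-MD-468 DMSO library.

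The epidermal kallikreins KLK5, KLK6 and KLK10, which lie close together on chromosome 19 with other kallikrein genes between them, had no read in MDA-MD-231. KLK5 had 702 and 811 CPM in MDA-MD-468 (at least 5585-fold higher), KLK6 96.7 and 191 CPM (at least 1062-fold) and KLK10 18.8 and 38.8 CPM (at least 213-fold). SLPI, a secreted protease inhibitor of epithelia, had 1 read against 159 and 163 CPM (7161-fold, 95% counting interval 1280.3 to 281890.00). MMP1, a collagenase, had 121 and 139.6 CPM in MDA-MD-231 and 0.0505 and 0.146 CPM in MDA-MD-468, where it rested on 4 reads (-10.28 ± 0.34, edgeR BH-adjusted p = 2.29e-05). The plasminogen activator PLAT had 412 and 334 CPM in MDA-MD-231 and 0.202 and 0.777 CPM in MDA-MD-468 (-9.54 ± 0.43, edgeR BH-adjusted p = 4.09e-05). ADAM19 was unread in MDA-MD-468 (at least 313-fold lower), and CST3, the cystatin C gene, had 163 and 169 CPM in MDA-MD-231 against 1 read (6583-fold, 95% counting interval 1204 to 265151). Over the list 20 of 40 were lower and 13 higher (45 listed).

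Surface proteins used as drug targets or stem cell markers differed in 13 cases upward and 8 downward of 28 tested (29 listed). VTCN1, the gene of the checkpoint protein B7-H4, had no read in MDA-MD-231 and 137 and 303 CPM in MDA-MD-468 (at least 1625-fold higher). PROM1, the gene of CD133, had none against 61.9 and 123 CPM (at least 684-fold higher). MSLN, the mesothelin gene, had 28.7 and 43.6 CPM in MDA-MD-231 and 0.858 and 1.02 CPM in MDA-MD-468 (-5.26 ± 0.35, edgeR BH-adjusted p = 0.000101). NT5E, the gene of CD73, had 612 and 708 CPM in MDA-MD-231 and 134 and 191 CPM in MDA-MD-468 (-2.02 ± 0.21, edgeR BH-adjusted p = 0.00053). The transferrin receptor TFRC (-0.38 ± 0.18) and PVR (-0.27 ± 0.16) did not pass. Cancer-testis antigens, most of which are normally read only in germ cells, differed too: 7 of 13 tested were higher and 5 lower (27 listed). These counts include the MAGE family genes MAGED1 and MAGED2, which were read in both lines. MAGEA12 had no read in MDA-MD-231 and 133 and 148 CPM in MDA-MD-468 (at least 1035-fold higher), and MAGEA3 0.540 and 0.408 CPM in MDA-MD-231 and 237 and 288 CPM in MDA-MD-468 (9.09 ± 0.27, edgeR BH-adjusted p = 2.07e-05), though MAGEA genes are close copies that can share reads. MAGEC1 had 73.04 and 77.3 CPM in MDA-MD-231 and 0.0505 and 0.194 CPM in MDA-MD-468 (-9.18 ± 0.37, edgeR BH-adjusted p = 3.47e-05).

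By the fitted log2 difference, which against a line without reads depends on the fit's prior count and is not a bound, the 12 largest rises among genes with at least 20 CPM were those of CASP14, S100A9, KLK5, MGP, ALDH3B2, RARRES1, KRT5, TP53I11, KRT23, SLC1A6, VTCN1 and S100A7. Of these, 11 had no read in either MDA-MD-231 library. Genes with 1 read, such as S100A8, ELF3, CDH1 and SLPI, have ratios above some of the bounds given here, so the order is that of the fit only. CASP14, a caspase of the cornifying epidermis, had 609.8 and 1498 CPM in MDA-MD-468 (at least 7782-fold higher). MGP, an inhibitor of calcification, had 419 and 646 CPM (at least 3931-fold) and ALDH3B2 428 and 535 CPM (at least 3556-fold). The retinoid-responsive RARRES1 had 267 and 602 CPM (at least 3209-fold), TP53I11 279.7 and 414 CPM (at least 2561-fold) and the glutamate transporter SLC1A6 223 and 342 CPM (at least 2087-fold). S100A7, psoriasin, had 172 and 268 CPM (at least 1624-fold) and has a near-identical copy. The third MDA-MD-231 library had no read of CASP14, MGP, ALDH3B2, TP53I11 or SLC1A6 and 0.123 CPM of RARRES1.

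Ranked in the same way, with the same limit, the 12 largest falls were those of SRGN, G0S2, TXNIP, BEX3, SPANXB1, CDH4, BASP1, EDIL3, DLC1, GPX3, BCAT1 and TCEAL9, none of which had a read in MDA-MD-468. SRGN, a proteoglycan of secretory granules, had 506 and 612 CPM in MDA-MD-231 (at least 3763-fold lower in MDA-MD-468). The lipolysis inhibitor G0S2 had 238 and 164 CPM (at least 1354-fold), and TXNIP, an arrestin-like protein that limits glucose uptake, 282 and 111 CPM (at least 1321-fold). Of these 2 the third MDA-MD-231 library held less, 66.5 CPM of G0S2 and 14.3 CPM of TXNIP. EDIL3, a secreted integrin ligand, had 98.7 and 158 CPM (at least 863-fold), and BASP1 151 and 134 CPM (at least 958-fold). DLC1, a GTPase-activating protein, had 115 and 104 CPM (at least 736-fold), and BCAT1, which transaminates branched-chain amino acids, 80.5 and 129 CPM (at least 706-fold). BEX3 (139 and 198 CPM, at least 1135-fold) and TCEAL9 (70.6 and 110.2 CPM, at least 608-fold) are neighbours on the X chromosome. SPANXB1 (136 and 166 CPM, at least 1016-fold) is a cancer-testis gene with near-identical copies.

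Ribosomal protein genes were lower in MDA-MD-468 in 43 of 79 cases and higher in 3 (median -0.62), and the size was mostly moderate. RPLP0 of the ribosomal stalk had 1934 and 2137 CPM in MDA-MD-231 and 630.3 and 669 CPM in MDA-MD-468 (-1.65 ± 0.15, edgeR BH-adjusted p = 0.000333), and RPL6 (-1.63 ± 0.19) and RPL35 (-1.52 ± 0.17) were similar in size. RPS28 had the largest difference of those named (43.1 and 47.4 CPM in MDA-MD-231 and 3.43 and 4.42 CPM in MDA-MD-468, -3.52 ± 0.24, edgeR BH-adjusted p = 0.000112). RPL9 (0.78 ± 0.20), RPS12 (0.54 ± 0.15) and FAU (0.52 ± 0.17) were higher, and all of the higher calls were lost without the MDA-MD-468 parental library. Without the MDA-MD-468 DMSO library 25 were lower. Of the 13 mitochondrially encoded mRNAs 6 were higher and 2 lower in MDA-MD-468. MT-ND5 had 1157 and 1055 CPM in MDA-MD-231 and 2461 and 2752 CPM in MDA-MD-468 (1.24 ± 0.16, edgeR BH-adjusted p = 0.00108), and MT-ND2 was lower (-0.83 ± 0.17, edgeR BH-adjusted p = 0.00731). The third MDA-MD-231 library, with 5.05% mitochondrial counts, stood above both others of its line, and with it 0 of these mRNAs were higher. Without the MDA-MD-468 DMSO library 0 were lower.

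**Figure D4:**
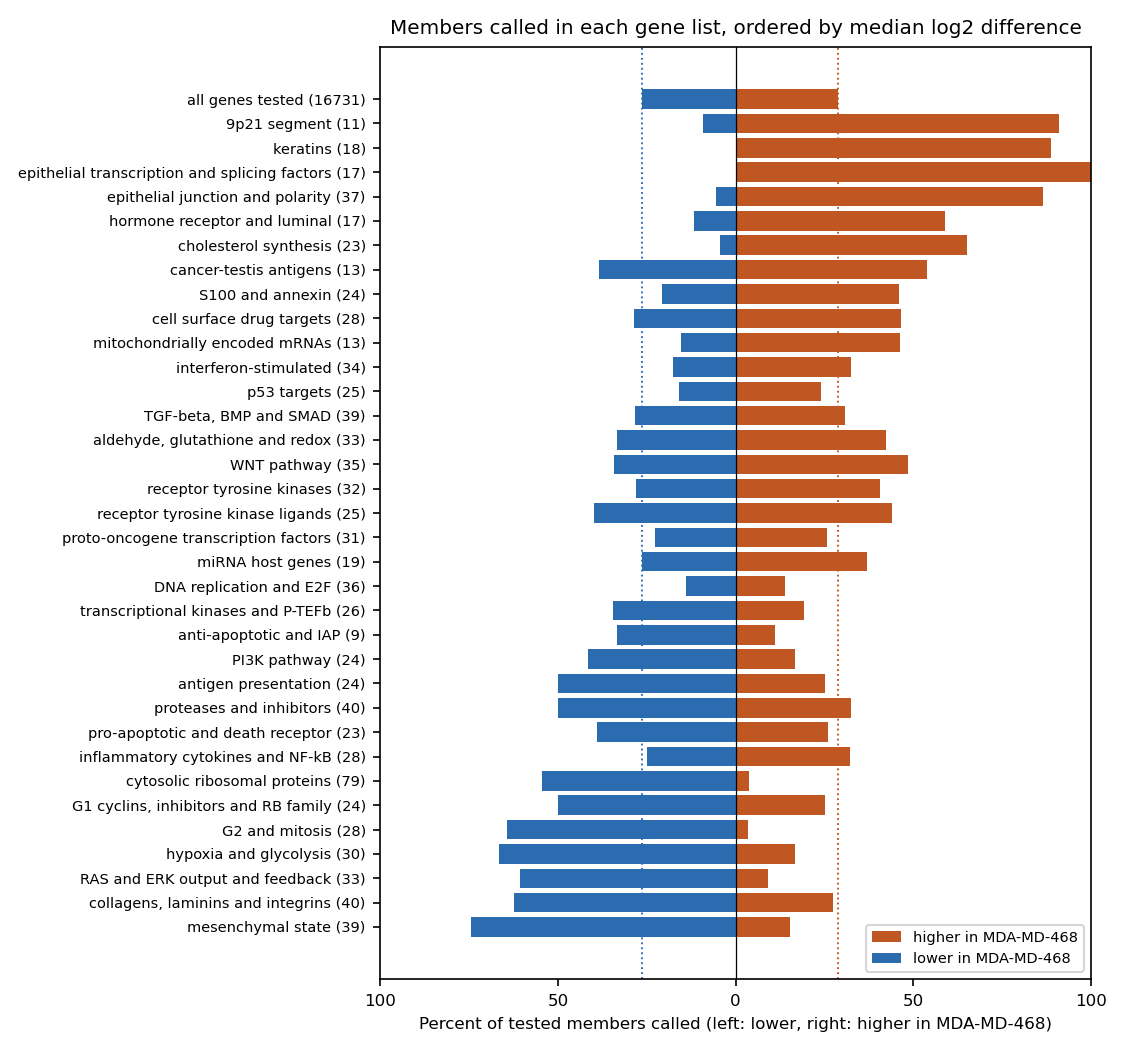
Share of the tested members of each gene list called higher (orange, to the right) or lower (blue, to the left) in MDA-MD-468, in percent, with the number tested in brackets and lists ordered by their median log2 difference. Dotted lines mark the shares over all genes, 28.7% higher and 26.5% lower. Keratin and epithelial lists lie far to the right and the mesenchymal list to the left. The lists were composed with earlier results of these data known, so the distance from the dotted lines is a description.

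Some genes with large differences lay side by side. Positions are those of GENCODE release 29 on GRCh38, found for 15454 of the 16731 tested genes, and these stretches were picked after their values were seen. On chromosome 9, MTAP, a purine salvage gene (chromosome 9, 21802543 to 21937651), had no read in MDA-MD-231 and 42.3 and 47.2 CPM in MDA-MD-468, at least 331-fold higher. CDKN2A, CDKN2B and ELAVL2, a neuronal RNA-binding protein gene (17.6 and 11.9 CPM in MDA-MD-468, at least 109-fold higher), were likewise unread. KLHL9 had 1 read against 32.8 and 30.9 CPM (1406-fold, 95% counting interval 253 to 55762). FOCAD, which lies to one side of these genes, had 3.28 and 2.54 CPM in MDA-MD-231 and 42.98 and 34.8 CPM in MDA-MD-468 (3.74 ± 0.27, edgeR BH-adjusted p = 0.000131), and MLLT3 beyond it was lower in MDA-MD-468 (-1.47 ± 0.35), a call lost without the MDA-MD-468 parental library (-1.08). The pseudogene KHSRPP1 inside the stretch kept a mean of 20.9 CPM in MDA-MD-231, and reads of a pseudogene can be shared with the parent gene. Of 11 tested genes of the 9p21 list 10 were higher and 1 lower in MDA-MD-468.

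Around EGFR on chromosome 7, tested genes with at least 5 CPM on average in a line were counted. Of the other 15 such genes within 5 Mb, 12 were higher in MDA-MD-468 and 1 lower. SEC61G, a subunit of the protein translocation channel (chromosome 7, 54752250 to 54759974), had 72.7 and 77.8 CPM in MDA-MD-231 and 1392 and 1389 CPM in MDA-MD-468 (4.21 ± 0.16, edgeR BH-adjusted p = 3.40e-05). LANCL2 had 41.96 and 43.5 CPM in MDA-MD-231 and 1083 and 1162 CPM in MDA-MD-468 (4.72 ± 0.17, edgeR BH-adjusted p = 2.67e-05). VOPP1 had 63.1 and 79.9 CPM in MDA-MD-231 and 908 and 937 CPM in MDA-MD-468 (3.69 ± 0.19, edgeR BH-adjusted p = 5.29e-05). Each of these 3 neighbours had a larger log2 difference than EGFR, without a test of that gap. CCT6A, about 1 Mb away, had 599 and 697 CPM in MDA-MD-231 and 2087 and 2414 CPM in MDA-MD-468 (1.80 ± 0.17, edgeR BH-adjusted p = 0.000358), and GRB10, an EGFR-binding adaptor further off, did not pass (-0.22 ± 0.17).

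On chromosome 16, UBN1, a histone chaperone subunit (chromosome 16, 4846665 to 4882360), had 99.98 and 74.8 CPM in MDA-MD-231 and no read in MDA-MD-468, at least 588-fold lower. GLYR1, a nucleosome-binding protein gene, had 85.8 and 68.3 CPM (at least 518-fold lower), MGRN1, a ubiquitin ligase gene, 53.9 and 43.4 CPM (at least 327-fold) and CDIP1 27.7 and 27.1 CPM (at least 184-fold). UBALD1, NUDT16L1, ANKS3 and ZNF500, which lie between these, had no read in MDA-MD-468 either. HMOX2, a haem oxygenase gene just outside, had 78.7 and 60.8 CPM in MDA-MD-231 and 3.53 and 5.68 CPM in MDA-MD-468 (-3.92 ± 0.30, edgeR BH-adjusted p = 0.000161). SEC14L5 on the other side was higher, with 0.0900 and 0 CPM in MDA-MD-231 and 17.3 and 22.01 CPM in MDA-MD-468 (2 reads in MDA-MD-231, 437-fold, 95% counting interval 120.5 to 3611), and NAGPA beyond it did not pass (-0.37 ± 0.24).

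The genes next to RB1 on chromosome 13 had smaller log2 differences than RB1 itself, without a test of that gap. Its close neighbours ITM2B (149 and 137 CPM in MDA-MD-231 and 88.4 and 73.7 CPM in MDA-MD-468, -0.82 ± 0.16, edgeR BH-adjusted p = 0.00626) and MED4 (-1.36 ± 0.19) were lower, RCBTB2 more so (-3.24 ± 0.59). Within 5 Mb, 18 of the 47 other tested genes with at least 5 CPM on average in a line were lower and 4 higher. For SMAD4 on chromosome 18 the flanking genes went the other way: ME2 (0.77 ± 0.18) and MEX3C (0.68 ± 0.16) were higher in MDA-MD-468. On the X chromosome, ARMCX1 (75.1 and 65.6 CPM in MDA-MD-231, at least 473-fold lower), ARMCX2, ARMCX3 and ARMCX6 had no read in MDA-MD-468. Among the BEX3 neighbours, TCEAL4 had 58.7 and 72.01 CPM in MDA-MD-231 and 61.7 and 69.7 CPM in MDA-MD-468 and did not pass (0.01 ± 0.18), so the absent genes there did not form 1 unbroken block. In the HOXC cluster of chromosome 12, HOXC10, HOXC11, HOXC12, HOXC13 and HOTAIR had at most 3 reads in each MDA-MD-231 library, with 30.8 and 33.7 CPM of HOXC13 in MDA-MD-468 (at least 238-fold higher).

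**Figure D5:**
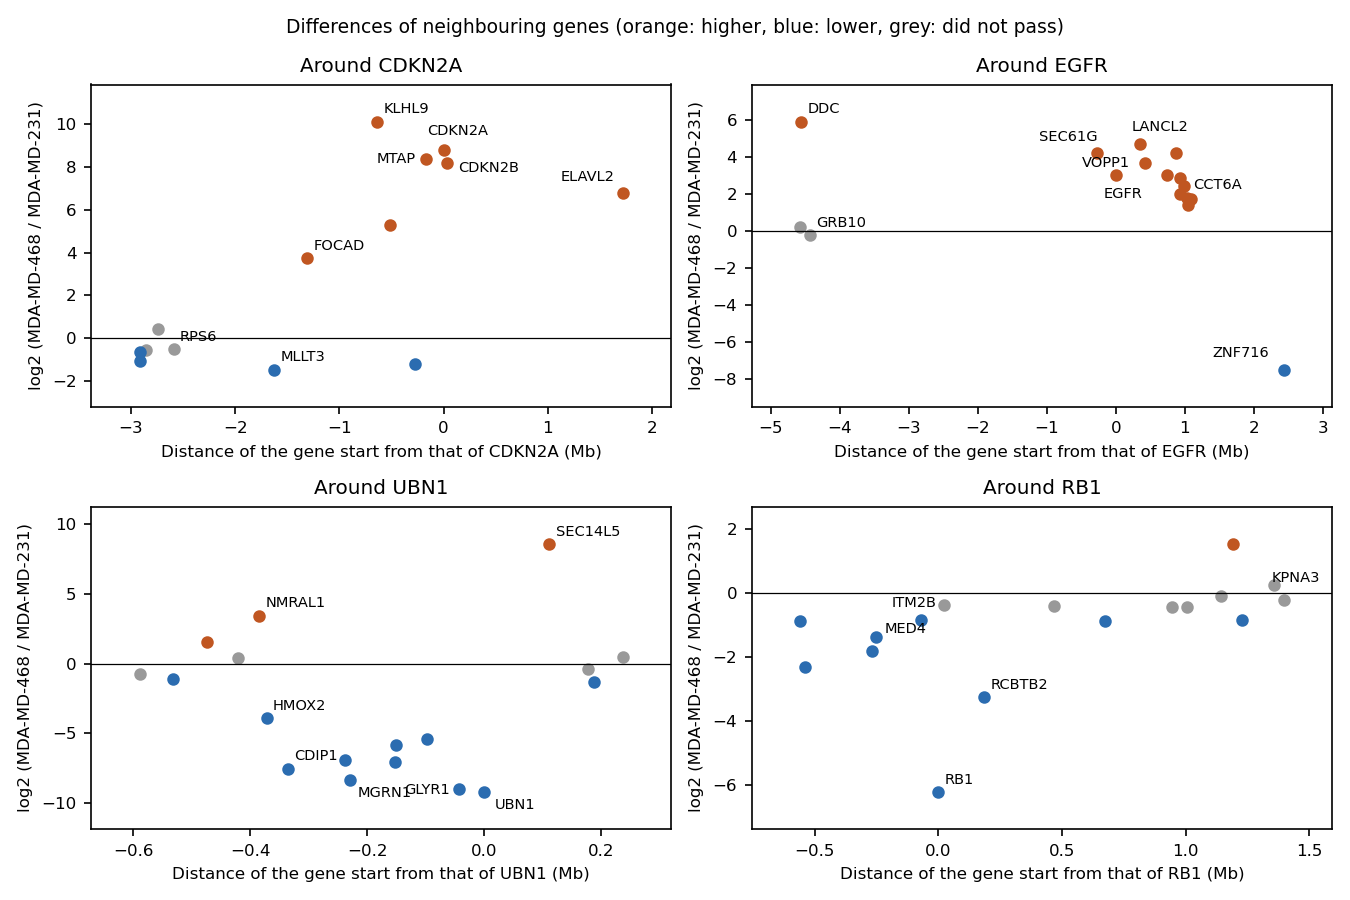
Log2 difference of tested genes, without those at the lowest levels, against the distance of their start from that of CDKN2A, EGFR, UBN1 or RB1, in Mb. Genes unread in 1 line are placed at their bound against 3 counts per library. Genes close to CDKN2A and EGFR lie mostly above 0 and a stretch before UBN1 lies far below it, while the genes beside RB1 are lower by less than RB1.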

How the data were processed

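The authors deposited unscaled whole-number counts, with a row for each gene and a column for each library. The submitters' processing notes name FastQC, the aligner STAR (version 2.7.10a) and the human build GRCh38. Which program counted reads, against which annotation, with or without strand and molecular identifiers, is not given in the sources used here. Where reads carry no identifiers they are not independent molecules, so intervals and bounds cover counting error only. The table has 59428 entries, 698 of them Ensembl IDs without a symbol. Columns were assigned by library name.

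The 4 libraries were fitted with edgeR 4.0.16 in R 4.3.3: filterByExpr on line (minimum count 10, minimum total 15), TMM scaling and the quasi-likelihood F test, 2-sided, with BH adjustment over 16731 genes and 2 residual degrees of freedom. DMSO and parental were repeats of a line. The procedure was run on simulated counts with few changed genes, unlike these data, as a check of the sign and size of estimates only. Standard errors are those implied by the F statistic. Gene lists, members and rules were chosen with earlier results of these data known. Named are 24 genes of long-standing interest in these lines, the 12 largest called differences in each direction by fitted log2 at 20 CPM or more whose lines did not overlap, and in each list up to 4 members called in each direction at 10 CPM or more, and up to 3 not called with the highest level. A few of these genes are not reported here. Genes outside this rule are said to be picked afterwards. The alternatives were DESeq2's size factors, unscaled totals, no filter, DESeq2 1.42.0, vehicle as a block, each library left out, the third MDA-MD-231 library added, and a test against a 2-fold difference.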

Additional observations from a re-analysis of the deposited data

How the results depend on the processing

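No named gene that differed between the lines changed direction under the alternatives run. The number of genes that differed was 9229 with DESeq2's size factors, 9145 with library totals, 8871 without the count filter, 8862 with DESeq2 and 8172 with the third MDA-MD-231 library, against 9231. Leaving out 1 library gave 6101 to 9128 genes in all and 2834 to 4406 lower genes, the lowest counts without the MDA-MD-468 parental library. It left 5919 of the 9231 genes called. That fit has 1 library in an arm, which is assumed to vary like the other arm, and fewer residual degrees of freedom. The test against a 2-fold difference called 4544 genes, 2554 higher and 1990 lower. The labels carry no replicate numbers. With the vehicle as a replicate block, 10840 genes differed, 9213 of them among the 9231, and 31 named genes that did not pass were called, among them CD44 (0.88), MYC (-0.88), S100A4 (-0.98) and CDKN1A (-0.67). Of 266 named genes called, 29 were not called without the MDA-MD-468 parental library and 18 with the third MDA-MD-231 library. Scaling moved the median log2 difference of all genes from 0.03 to 0.02 with DESeq2's size factors and to 0.07 with library totals. Where a line had no read, a level under 3 counts per library could not be told from 0.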

Other observations

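Some genes stood apart in the same direction between the DMSO and the parental library of both lines. With line as a block and 1 residual degree of freedom, edgeR called 0 of 16731 genes at a BH-adjusted p under 0.05, and 2872 had an unadjusted p under 0.05. The genes below were chosen after their values were seen, and have no test beyond that. CAV1, the coat protein of caveolae, had 311 CPM with DMSO and 771 CPM in the parental library of MDA-MD-231, and 54.2 and 122 CPM in MDA-MD-468. The WNT antagonist DKK1 had 304 and 784 CPM in MDA-MD-231 and 9.44 and 36.4 CPM in MDA-MD-468. The keratin KRT7 had 51.8 and 197 CPM, and 680 and 1536 CPM. INHBA, an activin subunit, had 8.82 and 28.96 CPM, and 3.94 and 31.2 CPM. In the other direction, the immediate-early gene EGR1 had 135 CPM with DMSO and 13.1 CPM in the parental library of MDA-MD-231, and 159 and 65.6 CPM in MDA-MD-468. The cyclin-dependent kinase inhibitor CDKN1A had 223 and 53.2 CPM, and 102 and 46.4 CPM.

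The share of genes higher in MDA-MD-468 varied by chromosome, given here as a description since neighbouring genes are not independent. Counted here are tested genes with a position and at least 5 CPM on average in a line, a cut that the shares over all genes do not have. On chromosome 22, 52.8% of 269 such genes were higher and 9.29% lower, with a median log2 difference of 0.63. On chromosome 21 the shares were 55% and 11.7% of 120 genes (median 0.63), and on chromosome 11 they were 50.9% and 15.6% of 685 genes (median 0.58). On chromosome 10, 14.6% of 481 genes were higher and 51.8% lower, with a median of -0.62. Chromosome 14 stood close to it, with 13.4% and 47.6% of 382 genes and a median of -0.54. Among windows of 5 Mb, all 27 such genes between 30000001 and 35000000 of chromosome 11 were higher in MDA-MD-468 (median 1.71). All 12 such genes between 75000001 and 80000000 of chromosome 12 were lower (median -2.56).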
